A study of Mus musculus with 11 samples.

Results

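Macrophages that take up dead cells and their lipids express a shared set of genes, and 10 of them were followed here in the infarcted mouse heart. They are Trem2, Tyrobp, Spp1, Lgals3, Apoe, Gpnmb, Cd68, Cd9, Fabp5 and Lpcat2, chosen by name as genes of this macrophage program. The choice was made with earlier results of these data known. These are 10 of the 55421 genes of the count table. All 10 passed edgeR's filter on low counts in each of the 3 comparisons. RNA came from hearts of 11 female C57BL/6J mice, 8 weeks old. Permanent ligation of a coronary artery (LAD) in 8 of these mice caused a myocardial infarction (MI), and whole tissue labelled as infarct border zone was taken 3 days later. How much of the infarct itself each sample held is not given in the sources used here. Of the infarcted mice, 4 received GI254023X (A10i), a hydroxamate inhibitor of the metalloprotease ADAM10, at 100 mg/kg from an implanted osmotic minipump, and 4 received the solvent DMSO. The Sham group held 3 mice with DMSO and gave healthy heart tissue, so that ligation and the part of the heart that was sampled cannot be told apart in any comparison with Sham.

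TREM2 is a receptor for lipids and lipoproteins on macrophages and microglia. It has no signalling tail of its own and passes its signal through the adaptor TYROBP, also named DAP12, to the kinase SYK. Macrophages with this receptor engulf dying cells, store and export their cholesterol and secrete matrix and repair proteins such as osteopontin (the product of Spp1) and galectin-3 (Lgals3). They also express the glycoprotein GPNMB. The extracellular part of TREM2 is a known substrate of ADAM10 and ADAM17, a step at the protein that RNA counts do not measure.

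Start regions are printed for Spp1, Gpnmb, Trem2 and Cd68, which are among the genes that rose after MI. That of Apoe, the gene whose DMSO and Sham mice overlapped, is printed as well, and the windows of other members are only described. Sequences are from RefSeq in build GRCm38.p6, from 250 bases before to 50 bases after the transcription start, on the strand of the gene and 5′ to 3′, and 8 of the 10 genes had 11 such windows. Capitals mark matches, on either strand, to TGANTCA (the AP-1 motif), CACGTG (E-box), CATGTG (M-box), GAGGAAG (PU.1) and AGGAAGT (ETS), of which the last 2 can overlap. Trem2 is shown at chr17:48346151-48346450 (+), Gpnmb at chr6:49036268-49036567 (+), Spp1 at chr5:104434861-104435160 (+), Cd68 at chr11:69666121-69666420 (-) and Apoe at chr7:19699139-19699438 (-).
Trem2: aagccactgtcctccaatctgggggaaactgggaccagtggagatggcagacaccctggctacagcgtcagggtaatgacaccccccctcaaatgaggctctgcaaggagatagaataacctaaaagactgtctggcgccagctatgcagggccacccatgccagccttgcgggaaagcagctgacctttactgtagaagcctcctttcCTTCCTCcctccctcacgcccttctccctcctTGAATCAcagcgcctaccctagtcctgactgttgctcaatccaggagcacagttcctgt
Gpnmb: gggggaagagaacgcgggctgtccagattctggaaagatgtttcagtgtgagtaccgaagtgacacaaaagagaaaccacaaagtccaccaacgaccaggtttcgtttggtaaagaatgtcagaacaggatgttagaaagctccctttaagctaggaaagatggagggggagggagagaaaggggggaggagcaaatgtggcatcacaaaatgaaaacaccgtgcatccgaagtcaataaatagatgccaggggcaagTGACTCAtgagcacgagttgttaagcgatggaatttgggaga
Spp1: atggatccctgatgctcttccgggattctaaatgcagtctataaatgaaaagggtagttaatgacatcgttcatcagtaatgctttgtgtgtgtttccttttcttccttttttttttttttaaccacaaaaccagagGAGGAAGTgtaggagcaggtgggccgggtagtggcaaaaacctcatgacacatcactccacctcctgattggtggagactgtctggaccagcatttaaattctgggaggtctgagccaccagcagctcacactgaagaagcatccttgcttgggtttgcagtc
Cd68: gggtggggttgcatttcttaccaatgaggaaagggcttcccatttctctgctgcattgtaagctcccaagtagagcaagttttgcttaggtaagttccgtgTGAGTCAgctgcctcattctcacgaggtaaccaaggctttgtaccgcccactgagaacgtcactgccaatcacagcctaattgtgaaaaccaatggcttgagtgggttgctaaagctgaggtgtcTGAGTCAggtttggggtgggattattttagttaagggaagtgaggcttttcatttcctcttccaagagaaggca
Apoe: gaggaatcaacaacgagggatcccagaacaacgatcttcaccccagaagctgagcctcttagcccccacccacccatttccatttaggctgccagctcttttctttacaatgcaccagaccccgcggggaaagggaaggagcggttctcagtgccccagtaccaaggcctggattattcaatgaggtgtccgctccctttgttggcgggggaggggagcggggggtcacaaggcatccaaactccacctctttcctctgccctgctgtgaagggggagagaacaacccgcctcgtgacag

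Trem2 held an AP-1 match that began 9 bases before its start and a PU.1 match that began 41 bases before it. Gpnmb held an AP-1 match 8 bases after its start, and Cd68 held 2 AP-1 matches, 149 and 24 bases before its start. In Spp1 a PU.1 match began 113 bases before the start and overlapped an ETS match. Apoe had no match in any of its 3 windows, nor had Lpcat2. The single window of Lgals3 lay 6109 bases inside the gene as counted and held no match, and Cd9 had 1 M-box match. Over all 32851 RefSeq promoter windows, 7.81% held the AP-1 letters, 13.6% those of PU.1, 9.35% those of ETS, 14.2% those of the M-box and 7.15% those of the E-box. Lgals3 and Lpcat2, without a match, rose 24.8-fold and 2.95-fold in DMSO mice, and Cd9, with a match, rose 1.37-fold. These matches describe letters in a window and show no binding, and whether they bear on the rise of a gene was not tested. Tyrobp and Fabp5 had no entry.

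The libraries held between 21702623 and 29511768 counts on genes. Counts were compared between groups with edgeR's quasi-likelihood test, two-sided, with Benjamini-Hochberg adjustment over all genes tested and a threshold of 0.01, and errors of log2 fold changes are standard errors (SE). Values of single mice are normalized counts, which are counts scaled to a common library size by the TMM method. As a check of the tissue, the summed normalized count of 8 cardiomyocyte markers lay between 1772341 and 1809190.1 in Sham mice and between 862740.4 and 1372080.5 in infarcted mice. That of 13 macrophage core markers, among them Adgre1, Csf1r and C1qa, lay between 8859 and 9615 in Sham mice and between 15384 and 36186 in infarcted mice. In such whole tissue, a change in the number of cells of a type and a change in RNA per cell cannot be told apart. Of the marker genes themselves, Col1a1 of fibroblasts rose by 2.85 on the log2 scale in DMSO mice (SE 0.53, edgeR adjusted p = 0.00346), and Myh6 of cardiomyocytes fell by 1.19 (SE 0.16, edgeR adjusted p = 0.000637).

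After MI, most of the macrophage repair genes rose, from 1.37-fold for Cd9 to 632-fold for Spp1 among those that passed the test in DMSO mice. In DMSO mice, 8 of the 10 were higher than in Sham mice past the threshold and 0 were lower, whereas 12.9% of the 17117 genes tested were higher and 9.6% lower. The median log2 fold change of the 10 genes was 2.18, and that of all genes tested was 0.0021. In A10i mice, 9 of 10 were higher than in Sham mice and 0 lower, where 13.7% of 16971 genes tested were higher and 9.11% lower, and the median of the 10 log2 fold changes was 2.27. With DESeq2 in place of edgeR, 9 genes were called in DMSO mice (15.7% of genes tested higher, 11.9% lower) and all 10 in A10i mice (14.9% higher, 10.5% lower). The comparisons share the Sham mice. Because the 10 genes were chosen with earlier results of these data known, these counts describe them and are no independent test. Every DMSO mouse lay above every Sham mouse in 9 of 10 genes, which held for 25.1% of genes tested (23.6% lay below), and every A10i mouse did so in 10 of 10, which held for 24.8% (23.5% below). Sham mice were few and DMSO mice variable, and the number of calls in the DMSO comparison fell to 4 without Sham mouse S2 or S3 and to 5 without S1 or DMSO mouse A127. Spp1, Lgals3, Tyrobp and Cd68 were called in each of these fits.

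**Figure D1:**
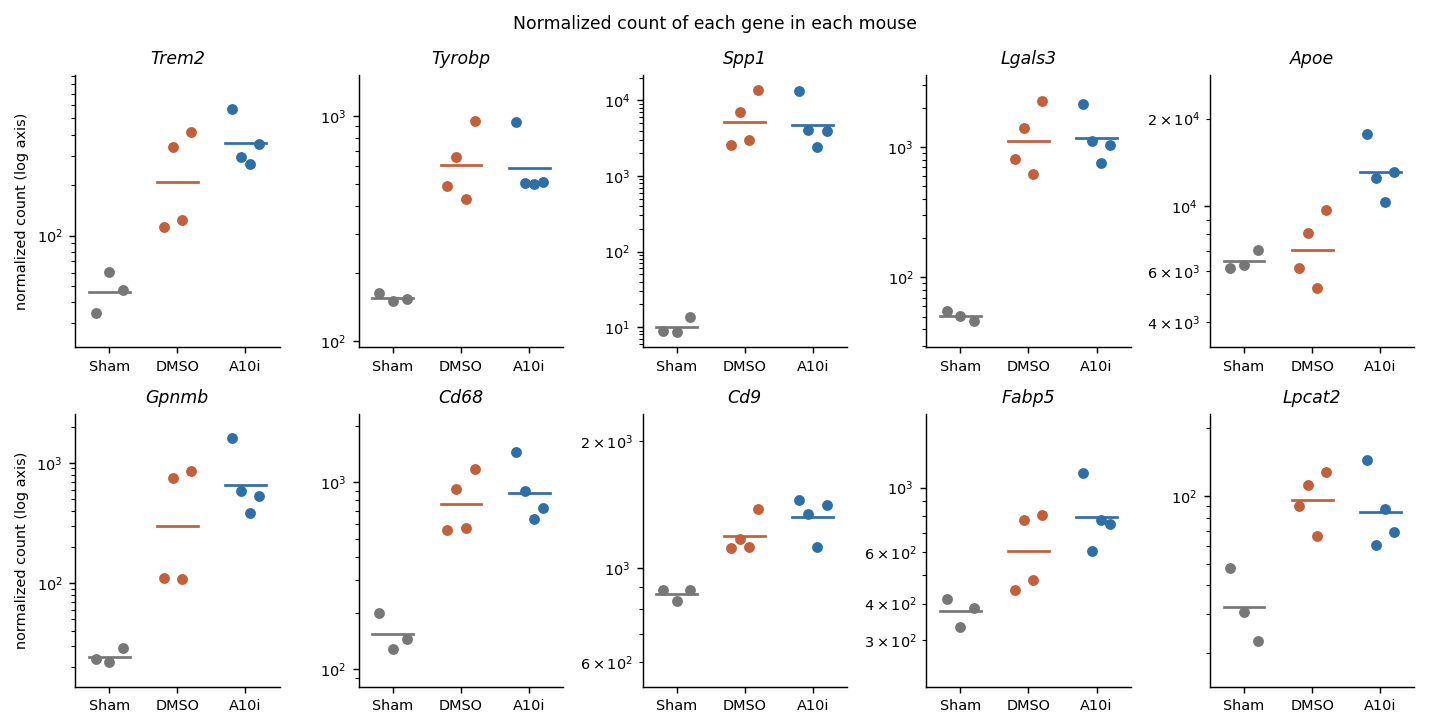
Normalized count (log axis) of each of the 10 genes in each mouse, by group, with a line at the geometric mean of the group. Spp1 lay near 10 in Sham mice and at 2403 or above in every infarcted mouse, whereas for Apoe the 4 A10i mice stood above the DMSO and the Sham mice.

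Trem2 (ENSMUSG00000023992, chromosome 17, 48346401 to 48354147 of GRCm38, plus strand) encodes the lipid receptor itself. Its normalized counts were 34.3, 60.2 and 47.4 in the Sham mice S1, S2 and S3. In DMSO mice they were 112 in A105, 339 in A127, 123 in A128 and 412 in A129, and in A10i mice 572 in A116, 295 in A117, 268 in A119 and 352 in A120. All infarcted mice stood above all Sham mice, and of the DMSO mice A105 and A128 lay below the A10i range and A127 and A129 within it. Trem2 rose by 2.37 on the log2 scale in DMSO mice (SE 0.52, edgeR adjusted p = 0.00720) and by 2.96 in A10i mice (SE 0.32, edgeR adjusted p = 0.000372). In DMSO mice this call was lost in 6 fits, with adjusted p = 0.0624 without a filter on low counts and between 0.0160 and 0.0402 without S1, S2, S3, A127 or A129 (edgeR).

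Tyrobp (ENSMUSG00000030579, chromosome 7, 30413760 to 30417585, plus strand) encodes the adaptor through which TREM2 and several other receptors of myeloid and NK cells signal. Sham mice had 164, 150.1 and 154 normalized counts. DMSO mice had 491, 657, 429 and 954 in the order A105, A127, A128 and A129, and A10i mice had 944, 502, 497 and 509 in the order A116, A117, A119 and A120. The rise over Sham was alike in size in both groups, with log2 fold changes of 2.02 in DMSO mice (SE 0.27, edgeR adjusted p = 0.000825) and 1.98 in A10i mice (SE 0.25, edgeR adjusted p = 0.000770). Of the A10i mice, 3 lay between 497 and 509, and A116 stood far above them. Markers of NK cells, which also use this adaptor, were near 0, with a summed normalized count of 7 genes between 4.25 and 48.8 in every mouse. The marker sums of neutrophils and of monocytes, which are also myeloid cells, were higher in every infarcted mouse than in every Sham mouse. The part of any of these cells in the Tyrobp values was not tested.

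Among the secreted members, Spp1 had the highest fold change of the 10 genes in both infarcted groups, and Apoe the lowest in DMSO mice. Spp1 (ENSMUSG00000029304, chromosome 5, 104435118 to 104441050, plus strand) encodes osteopontin, a secreted matrix protein and integrin ligand. It had 8.86, 8.61 and 13.4 normalized counts in Sham mice, 2580.2, 6959.5, 3008 and 13761 in DMSO mice, and 13225, 4099, 2403 and 3883 in A10i mice, in the mouse order given above. It rose 632-fold in DMSO mice (log2 fold change 9.30, SE 0.93, edgeR adjusted p = 0.000320) and 569-fold in A10i mice (9.15, SE 1.00, edgeR adjusted p = 0.000711), from 8 to 13 raw counts per Sham library. The infarcted mice of either group differed among themselves, by 5.33-fold from the lowest to the highest DMSO mouse and by 5.50-fold among A10i mice. Spp1 shares 309 bases of exon with the gene model Gm42793 on the same strand, which held at most 27 counts.

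Lgals3 (ENSMUSG00000050335, chromosome 14, 47367751 to 47386160, plus strand) encodes galectin-3, a secreted lectin that binds sugars on cell surfaces. Its normalized counts were 55.4, 50.7 and 46.4 in Sham mice, 804, 1387, 619.9 and 2246 in DMSO mice, and 2154, 1117, 757 and 1028 in A10i mice. The log2 fold change over Sham was 4.63 in DMSO mice (SE 0.51, edgeR adjusted p = 0.000355) and 4.64 in A10i mice (SE 0.43, edgeR adjusted p = 0.000298), which is 24.8-fold and 24.9-fold. The ranges of the DMSO and A10i mice overlapped almost fully.

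Apoe (ENSMUSG00000002985, chromosome 7, 19696109 to 19699188, minus strand) encodes apolipoprotein E, a lipid carrier that macrophages secrete with exported cholesterol and that binds TREM2. Sham mice had 6149.9, 6269 and 7051 normalized counts, and DMSO mice had 6124, 8107, 5236 and 9690.2. A10i mice had 17717, 12465, 10314 and 13126, and each of them lay above every DMSO and every Sham mouse. DMSO and Sham mice overlapped, with a log2 fold change of 0.16 (SE 0.19, 95% interval -0.27 to 0.60, edgeR adjusted p = 0.528). In A10i mice Apoe was 2.07-fold as high as in Sham mice (log2 fold change 1.05, SE 0.17, edgeR adjusted p = 0.00139), a call lost without Sham mouse S1 (edgeR adjusted p = 0.0102).

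Gpnmb and Cd68 encode glycoproteins of the lysosome and the cell surface. Gpnmb (ENSMUSG00000029816, chromosome 6, 49036546 to 49070929, plus strand) had 23.3, 22.0 and 28.9 normalized counts in Sham mice, 111, 748, 108 and 862 in DMSO mice, and 1599.7, 583, 383 and 529 in A10i mice. DMSO mice A105 and A128 stood far below A127 and A129, with 7.98-fold from lowest to highest, and no A10i mouse was as low as A105 or A128. The log2 fold change over Sham was 4.20 in DMSO mice (SE 0.96, edgeR adjusted p = 0.00968) and 4.97 in A10i mice (SE 0.69, edgeR adjusted p = 0.00161). In DMSO mice this call was lost with RLE normalization (adjusted p = 0.0101), without a filter (0.0674) and without S1, S2, S3, A127 or A129 (0.0140 to 0.0411, edgeR).

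Cd68 (ENSMUSG00000018774, chromosome 11, 69664213 to 69666153, minus strand) is a general macrophage marker. It had 200.5, 129.1 and 144 normalized counts in Sham mice, 559, 917, 571 and 1177 in DMSO mice, and 1451, 896, 633 and 728 in A10i mice. Its log2 fold change was 2.35 in DMSO mice (SE 0.30, edgeR adjusted p = 0.000685) and 2.56 in A10i mice (SE 0.32, edgeR adjusted p = 0.000770). Cd9 (ENSMUSG00000030342, chromosome 6, 125460266 to 125494791, minus strand) encodes a tetraspanin of the plasma membrane that many cell types carry. It had 888, 838 and 886 normalized counts in Sham mice, 1116, 1174, 1123 and 1379.7 in DMSO mice, and 1451, 1340.3, 1120.0 and 1408 in A10i mice. The groups did not overlap with Sham, but the rise was small, with log2 fold changes of 0.46 (SE 0.09, edgeR adjusted p = 0.00418) and 0.62 (SE 0.09, edgeR adjusted p = 0.000839). In DMSO mice the call for Cd9 was lost without S1, S2 or S3 (edgeR adjusted p between 0.0203 and 0.0274).

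Fabp5 and Lpcat2 act on lipids inside the cell. Fabp5 (ENSMUSG00000027533, chromosome 3, 10012548 to 10016607, plus strand) encodes a fatty acid binding protein. Its normalized counts were 415, 332 and 387 in Sham mice, 445, 776, 481 and 808 in DMSO mice, and 1120.2, 604, 774 and 753 in A10i mice. The lower DMSO pair A105 and A128 lay just above the Sham range. The log2 fold change did not pass the threshold in DMSO mice (0.73, SE 0.22, edgeR adjusted p = 0.0296) and passed it in A10i mice (1.11, SE 0.20, edgeR adjusted p = 0.00268), where the call was lost without S1, S2 or S3 (adjusted p between 0.0110 and 0.0135) and without a filter (0.0235, edgeR). Lpcat2 (ENSMUSG00000033192, chromosome 8, 92855339 to 92919279, plus strand) encodes an acyltransferase that makes membrane phospholipids and platelet-activating factor. It had 47.6, 30.6 and 22.7 normalized counts in Sham mice, 90.6, 112, 66.3 and 127.4 in DMSO mice, and 145, 60.3, 87.6 and 69.0 in A10i mice. Its log2 fold change passed the threshold in DMSO mice (1.56, SE 0.31, edgeR adjusted p = 0.00367) and not in A10i mice (1.44, SE 0.36, edgeR adjusted p = 0.0117). The first call was lost without S2, S3 or A127 (edgeR adjusted p = 0.0220, 0.0203 and 0.0108), and the second passed without A116 or A117 (0.00547 and 0.00688, edgeR). That these calls fall on different sides of the threshold shows no difference between the groups, which is the subject of the direct comparison.

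**Figure D2:**
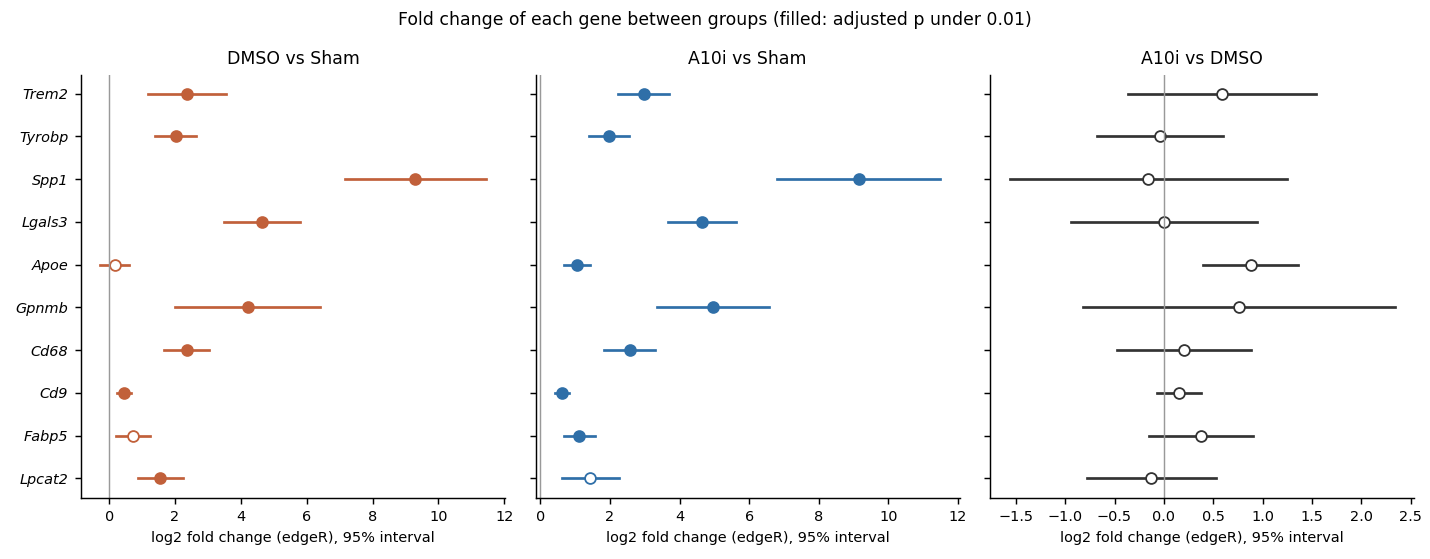
Log2 fold change of each of the 10 genes with its 95% interval from edgeR's quasi-likelihood fit, for DMSO against Sham, A10i against Sham and A10i against DMSO mice, with filled points at an adjusted p under 0.01. Against Sham 8 and 9 points are filled, and between A10i and DMSO none, where the interval of Apoe alone lies above 0.

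The comparison of A10i with DMSO mice asked whether the inhibitor changed the levels of these genes in the infarcted heart. At the adjusted threshold, 0 of the 10 genes differed, and 0.0% of the 16792 genes tested did in either direction (edgeR). At an unadjusted p under 0.05, 1 of 10 was higher with A10i, Apoe, where 7.1% of genes tested were higher and 6.73% lower. With DESeq2's Wald test, Apoe was also the only 1 of the 10 past the adjusted threshold, where 0.605% of the genes tested were higher and 0.714% lower. Apoe was 1.84-fold as high with A10i (log2 fold change 0.88, SE 0.22, 95% interval 0.40 to 1.36, unadjusted p = 0.00225, adjusted p = 0.132 with edgeR, adjusted p = 0.00489 with DESeq2). It was higher in 4 of 4 A10i mice than in any DMSO mouse, a separation that 4.01% of genes tested showed upwards and 4.11% downwards. When counts were scaled to library size only, without TMM, the 2 groups overlapped. In the fits that each left out 1 library, the log2 fold change of Apoe lay between 0.72 and 1.05 and its edgeR adjusted p between 0.127 and 0.333.

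The other 9 genes did not separate, and the data bound their differences unequally. The 95% interval of the log2 fold change was narrow for Cd9 (0.15, -0.07 to 0.38) and Fabp5 (0.37, -0.16 to 0.90). For Tyrobp the log2 fold change was -0.04 (-0.68 to 0.59), for Lpcat2 it was -0.13 (-0.78 to 0.53), for Cd68 it was 0.20 (-0.47 to 0.88) and for Lgals3 it was 0.00 (-0.94 to 0.95). Trem2 had 0.59 (-0.36 to 1.55), Gpnmb 0.76 (-0.82 to 2.34) and Spp1 -0.16 (-1.56 to 1.25). A 2-fold difference in either direction thus lies outside the intervals of Cd9, Fabp5, Tyrobp, Lpcat2, Cd68 and Lgals3. A 2-fold higher level with A10i lies inside those of Trem2 and Gpnmb, and a 2-fold change in either direction inside that of Spp1. The signs for Tyrobp, Spp1, Lgals3, Lpcat2 and Cd68 turned with the mouse that was left out.

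The same mice held the extreme values of gene after gene. Among DMSO mice, A129 had the highest value in 10 of 10 genes, and A105 and A128 held the lowest pair of values in 10 of 10. Among A10i mice, A116 was the highest in 10 of 10 and A119 the lowest in 8. In DMSO mice the SD of log2 CPM, the library-scaled count on a log2 scale, was 1.65 for Gpnmb, 1.12 for Spp1, 0.963 for Trem2 and 0.827 for Lgals3, which exceeded the SD of 99.8%, 99.1%, 98.4% and 97.4% of the genes tested, whose median SD was 0.211. Cd9, with an SD of 0.143, exceeded only 29.4%. In A10i mice the SD was 1.05 for Spp1, 0.889 for Gpnmb and 0.484 for Trem2, beside a median of 0.176 over all genes tested.

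Marker lists moved over the same mice. Of the DMSO mice, A129 had the lowest cardiomyocyte sum (862740.4, against 1011997 to 1187391 in the other 3), the highest macrophage core sum (26341, against 15384 in A105, 16003 in A128 and 21694 in A127) and the highest fibroblast sum (102214, against 32759 in A105, 49646 in A128 and 79241 in A127). Of the A10i mice, A116 had the lowest cardiomyocyte sum (1000422, against 1235592 to 1372080.5) and the highest macrophage core (36186, against 19121 to 23983) and fibroblast sums (152153, against 79530.2 to 99563). The highest mouse of each group in the 10 genes thus had the highest macrophage core and fibroblast sums and the lowest cardiomyocyte sum of that group. In A127, which with A129 formed the high DMSO pair, the cardiomyocyte sum (1122916) was above that of A128 (1011997). The part of the sampled tissue in these values was not tested. Mitochondrial genes held 14.8 to 22.2% of counts, with the lowest share in A129.

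**Figure D3:**
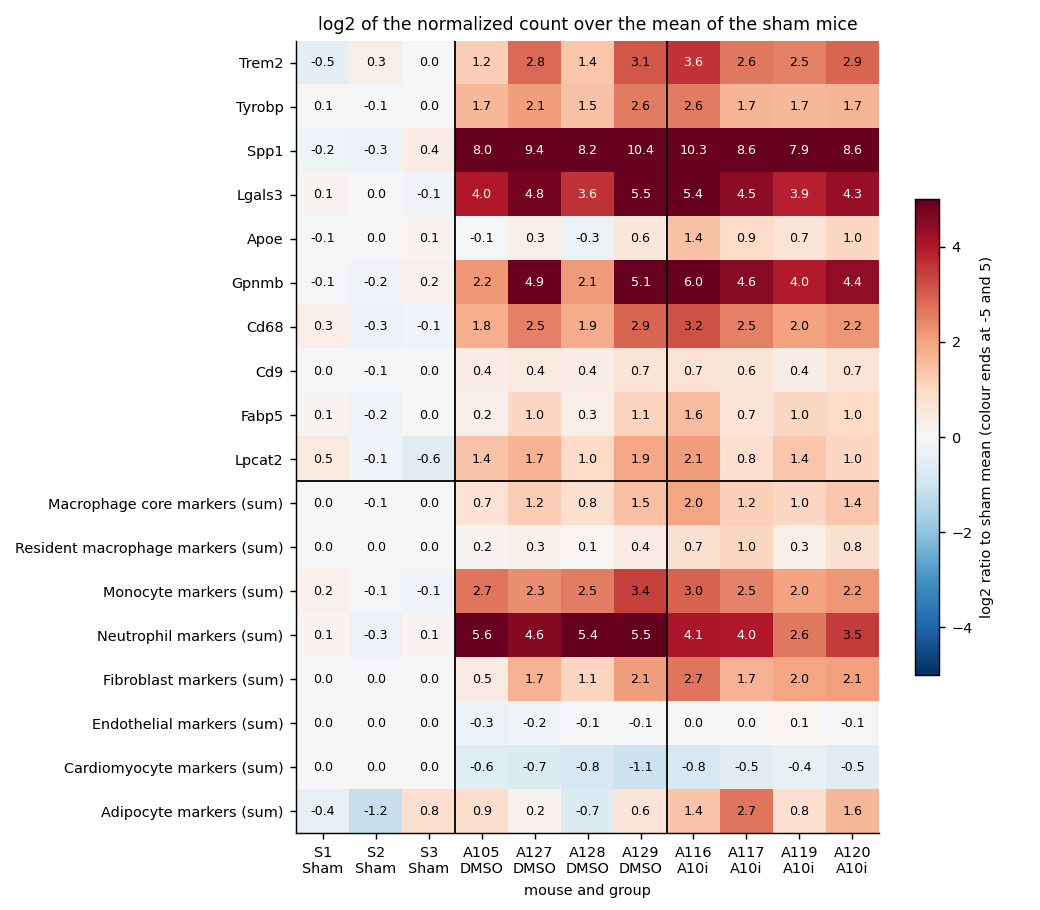
Log2 ratio of the normalized count to the mean of the Sham mice for the 10 genes, above the line, and for summed markers of 8 cell types, below it, in each of the 11 mice. A129 and A116 are the highest of their groups in all 10 genes and in the fibroblast and macrophage core sums.

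To describe the genes beside the amount of macrophage RNA, the mean log2 CPM of the 13 macrophage core markers of each mouse was taken from each gene's log2 CPM. On this scale, 5 of the 10 genes were higher in every DMSO mouse than in every Sham mouse, Spp1, Lgals3, Gpnmb, Cd68 and Tyrobp, where 2.45% of genes tested were higher. In A10i mice these 5 and Trem2 were higher, where 1.92% of genes tested were. With Csf1r or Adgre1 alone in place of the core, Trem2 was also higher in every DMSO mouse than in every Sham mouse, and the share of genes tested was not computed there. Spp1 went from -4.81 ± 0.357 in Sham mice to 2.60 ± 0.784 in DMSO and 2.30 ± 0.662 in A10i mice (SD, n = 3, 4 and 4). Lgals3 went from -2.69 ± 0.0527 to 0.38 ± 0.457 and 0.28 ± 0.263. The rise of these 5 genes exceeded the mean rise of the 13 core markers, but not that of each marker, since Itgam (3.39, SE 0.32, edgeR adjusted p = 0.000200) and Fcgr1 (2.69, SE 0.35, edgeR adjusted p = 0.000716) rose by more on the log2 scale in DMSO mice than Tyrobp and Cd68.

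Cd9, Fabp5 and Apoe behaved in the opposite way in DMSO mice, and Cd9 and Apoe in A10i mice, with values below those of every Sham mouse. This is the common case on this scale, since 85.0% and 89.1% of genes tested lay lower in the DMSO and the A10i comparison. Cd9 went from 1.36 ± 0.0777 in Sham mice to 0.48 ± 0.252 in DMSO and 0.46 ± 0.290 in A10i mice. With Csf1r alone in place of the core, Cd9 and Fabp5 overlapped between Sham and both infarcted groups. The place of Apoe against Sham also depended on this choice, since with Csf1r alone A10i mice lay above every Sham mouse and DMSO mice below, and with Adgre1 alone A10i mice overlapped Sham mice.

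Between A10i and DMSO mice, Apoe was the only 1 of the 10 genes that separated relative to the core, where 0.322% of genes tested were higher with A10i and 3.22% lower. It stood at 3.04 ± 0.0900 in DMSO mice (2.99 to 3.18), 3.77 ± 0.103 in A10i mice (3.64 to 3.87) and 4.25 ± 0.176 in Sham mice, and its SD in DMSO and A10i mice was smaller than that of its log2 CPM (0.398 and 0.323). The separation of Apoe remained with Csf1r alone, with Adgre1 alone and with a shortened core that left out Lyz2, Cd14, Itgam and Ptprc. Trem2, with -2.02 ± 0.656 in DMSO and -1.43 ± 0.122 in A10i mice, overlapped between them. With Csf1r or Adgre1 alone or with the shortened core, Tyrobp lay lower in every A10i than in every DMSO mouse, and with Csf1r or the shortened core Lpcat2 did as well. These 2 separations were absent with the full core. How many of all genes tested separate with the other denominators was not computed, so these separations cannot be read against that share.

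**Figure D4:**
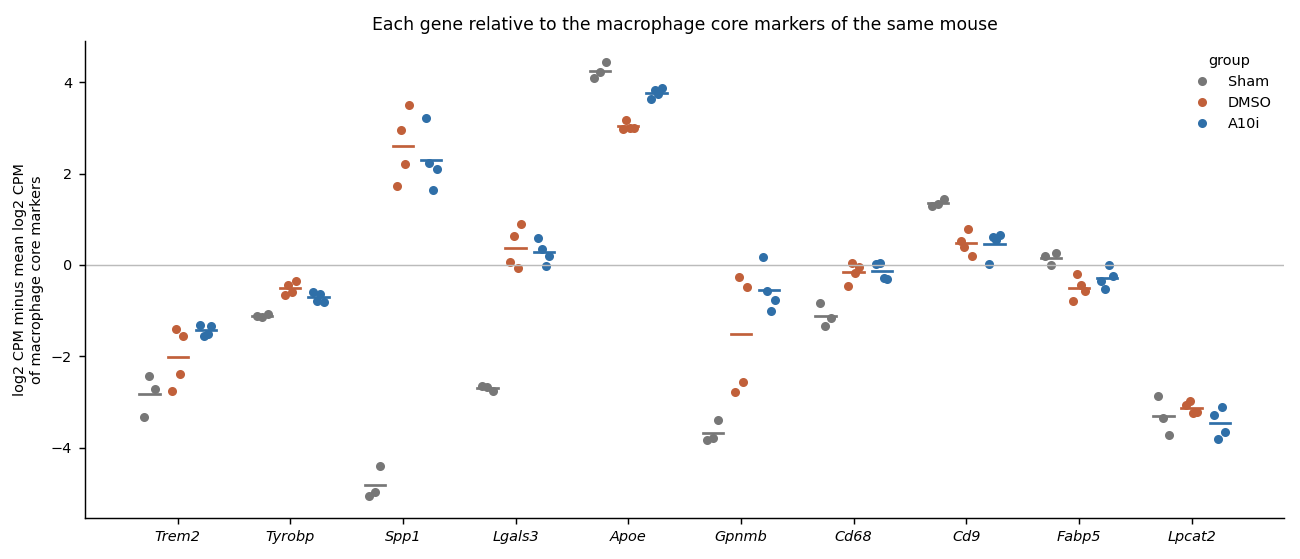
Log2 CPM of each gene minus the mean log2 CPM of 13 macrophage core markers in the same mouse, with points for mice and lines for group means. Apoe is the gene whose 4 A10i mice (3.64 to 3.87) stand clear of the 4 DMSO mice (2.99 to 3.18), and Spp1 the gene with the widest step from Sham.

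Marker sums of other cell types are given beside Apoe. The summed resident macrophage markers, among them Cd163 and Cx3cr1, lay between 5442 and 9003 in A10i, 4756 and 5690.5 in DMSO and 4341 and 4451 in Sham mice, and the sums of A10i and DMSO mice overlapped. With edgeR, 5 of 8 genes of this list had an unadjusted p under 0.05 for a higher level with A10i, with 0 past the adjusted threshold. Of all genes tested, 7.1% were higher and 6.73% lower at an unadjusted p under 0.05. Within the list, Cx3cr1, the fractalkine receptor, had a log2 fold change of 1.20 (SE 0.35, edgeR adjusted p = 0.190) and Cd163, a scavenger receptor for haemoglobin, one of 0.78 (SE 0.22, edgeR adjusted p = 0.179). The adipocyte sum lay between 179 and 656 in A10i and between 62.9 and 189 in DMSO mice, which overlapped, and within it Cfd, which encodes adipsin, had a log2 fold change of 1.52 (SE 0.34, edgeR adjusted p = 0.107). The fibroblast sums overlapped (79530.2 to 152153 with A10i and 32759 to 102214 with DMSO). Neutrophil marker sums were lower with A10i, between 716 and 1968 against 2769.8 to 5656 in DMSO mice and 93.7 to 128.5 in Sham mice. Of the 14 markers 9 were tested, and 9 of 9 were lower at an unadjusted p under 0.05. With edgeR 0 of them passed the adjusted threshold (smallest adjusted p = 0.0707), and DESeq2 called 5 lower, where 0.714% of all genes tested were lower. The monocyte sums overlapped (2990.5 to 5744 with A10i and 3676 to 7846 with DMSO), as did those of dendritic cells (1566 to 2889 and 1505 to 3112) and of endothelial cells (23553 to 26270.5 and 20529 to 23944). DESeq2 called 1 of 5 adipocyte and 1 of 7 endothelial markers higher with A10i, where 0.605% of all genes tested were. It called 0 markers of resident macrophages, fibroblasts, monocytes or dendritic cells. The part of any of these cell types in the Apoe values was not tested.

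Apoe belongs to the genes of sterol export under the nuclear receptor LXR. Of 12 other genes of this pathway tested, 1 was higher in DMSO than in Sham mice (Soat1, which esterifies cholesterol for storage) and 4 were lower (Mylip, Pltp, Scarb1 and Rxra), with a median log2 fold change of -0.04, where 12.9% of all genes tested were higher and 9.6% lower. In A10i mice 2 were higher (Soat1 and the sterol exporter Abcg1) and 1 was lower (Rxra), where 13.7% of all genes tested were higher and 9.11% lower. Between A10i and DMSO mice 0 passed the adjusted threshold with edgeR, and 4 of 12 had an unadjusted p under 0.05, all with higher levels under A10i (edgeR). At an unadjusted p under 0.05, 7.1% of all genes tested were higher and 6.73% lower. Whether this list bears on the Apoe values was not tested. Pltp, which encodes the phospholipid transfer protein of lipoproteins, had 814 to 915 normalized counts in A10i, 479.8 to 717 in DMSO and 927 to 1005 in Sham mice (log2 fold change of A10i over DMSO 0.53, SE 0.12, edgeR adjusted p = 0.100), and it was the 1 gene of the list that DESeq2 called higher (adjusted p = 0.00693). Mylip, a ubiquitin ligase that degrades the LDL receptor, had 555 to 812 in A10i, 330.1 to 484 in DMSO and 802 to 1043 in Sham mice (0.63, SE 0.15, edgeR adjusted p = 0.125). For both, A10i mice lay above every DMSO mouse and below or within the Sham range, whereas for Apoe they lay above both. The neighbours of Apoe on its chromosome were scarce, with at most 2 counts of Apoc2 or Apoc4 in a library.

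Of 13 genes of the signalling pathway behind TREM2 and TYROBP, 8 were higher in DMSO than in Sham mice and 0 lower, with a median log2 fold change of 1.23. In A10i mice 8 of 12 tested were higher than in Sham mice and 0 lower (edgeR). Over all genes tested, 12.9% were higher and 9.6% lower in DMSO mice, and 13.7% and 9.11% in A10i mice. Of the 13 macrophage core markers, 9 were higher in DMSO and 13 in A10i mice. The part of macrophage number in the list counts was not tested. DESeq2 called 1 gene, Malt1, lower in A10i than in Sham mice (adjusted p = 0.00621). Vav1, an exchange factor for Rac, rose by 1.76 on the log2 scale in DMSO mice (SE 0.25, edgeR adjusted p = 0.000890). Between A10i and DMSO mice, 0 of 13 had an adjusted p under 0.01 or an unadjusted p under 0.05, and Malt1, which encodes a paracaspase downstream of CARD9, came nearest with -0.27 (SE 0.12, edgeR adjusted p = 0.364). Of all genes tested, 7.1% were higher and 6.73% lower at an unadjusted p under 0.05.

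Of 17 further genes of the lipid-associated macrophage program tested, 9 were higher in DMSO and 13 in A10i mice than in Sham, and 0 were lower in either. Of all genes tested, 12.9% and 13.7% were higher and 9.6% and 9.11% lower. The median log2 fold changes of the list were 1.10 and 1.03, and those of all genes tested were 0.0021 and -0.0054. Mmp12, a macrophage elastase, had 3.82 to 5.54 normalized counts in Sham, 88.4 to 351 in DMSO and 121 to 503 in A10i mice (log2 fold change in DMSO mice 5.32, SE 0.70, edgeR adjusted p = 0.000745). Ch25h, which makes the LXR ligand 25-hydroxycholesterol, had 6.64 to 17.5 in Sham, 139 to 265 in DMSO and 53.8 to 139.9 in A10i mice. It rose after MI in DMSO mice (4.17, SE 0.34, edgeR adjusted p = 7.20e-05) and its log2 fold change of A10i over DMSO was -1.16 (SE 0.28, edgeR adjusted p = 0.132), the opposite sign to Apoe. With edgeR, 0 genes of this list passed the adjusted threshold between A10i and DMSO mice, and 1 was higher and 2 were lower at an unadjusted p under 0.05, where 7.1% of all genes tested were higher and 6.73% lower. DESeq2 called 1 gene of the list, Ch25h, lower (adjusted p = 0.00551).

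Genes of apoptotic cell uptake and of the lysosome rose in part. For comparison, 12.9% of all genes tested were higher and 9.6% lower in DMSO mice, and 13.7% and 9.11% in A10i mice. Of 17 uptake genes tested, 7 were higher in DMSO and 8 in A10i mice than in Sham, with 0 lower and 1 lower (Stab2), respectively. The scavenger receptor Msr1 rose by 3.02 in DMSO mice (SE 0.28, edgeR adjusted p = 0.000191), and Marco, another scavenger receptor, had 0 to 3 raw counts in Sham libraries and 25.7 to 63.2 normalized counts in DMSO mice. Of 18 lysosomal genes and factors, 6 were higher and 2 lower (Mitf and Tfeb) in DMSO mice, and 10 were higher and 0 lower in A10i mice. Acp5, the tartrate-resistant acid phosphatase, rose by 3.01 (SE 0.55, edgeR adjusted p = 0.00304) and Tfec, a factor of the MiT family, by 2.72 (SE 0.37, edgeR adjusted p = 0.000626). Mitf itself had 1573 to 1749.7 normalized counts in Sham, 656 to 1035 in DMSO and 1038 to 1557 in A10i mice, and its difference of 0.60 between A10i and DMSO did not pass the threshold (SE 0.16, edgeR adjusted p = 0.161).

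Of 11 receptor genes of osteopontin and galectin-3, 5 were higher in DMSO and 6 in A10i mice than in Sham, and 0 were lower. Over all genes tested, 12.9% were higher and 9.6% lower in DMSO mice, and 13.7% and 9.11% in A10i mice. Cd44, a receptor of both hyaluronan and osteopontin, had 248 to 286 normalized counts in Sham, 1312 to 2170.4 in DMSO and 856 to 1533 in A10i mice (log2 fold change in DMSO mice 2.59, SE 0.19, edgeR adjusted p = 7.37e-05). Itgb3, the beta chain of the vitronectin receptor, rose by 2.41 (SE 0.36, edgeR adjusted p = 0.00132). Of the relatives of the 10 genes, 8 of 20 were higher in DMSO mice and 0 lower, beside the same 12.9% and 9.6% of all genes tested. Trem1, the amplifier of inflammation in the TREM family, had 0 counts in all Sham libraries, 65.1 to 223 normalized counts in DMSO and 11.6 to 64.9 in A10i mice, and Treml4 had at most 24.3 in any mouse (log2 fold change in DMSO over Sham mice 2.37, SE 0.59, edgeR adjusted p = 0.0110). The A10i and DMSO ranges of Trem1 just failed to overlap, in the opposite direction to Apoe (log2 fold change -1.69, SE 0.51, edgeR adjusted p = 0.196).

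Levels can be compared between genes as normalized counts per kilobase of annotated exon. In Sham mice the order was led by Apoe (3036 ± 229), then Cd9 (426 ± 14.0) and Tyrobp (234 ± 10.7), which did not overlap each other, followed by Cd68 and Fabp5, which did. At the low end, Lpcat2, Trem2 and Spp1 overlapped in sequence (9.93 ± 3.76, 9.57 ± 2.62 and 6.24 ± 1.64), and Gpnmb came last with 3.79 ± 0.562 (SD, n = 3). In DMSO mice Spp1 (3991 ± 3143) and Apoe (3409 ± 936) overlapped at the top, well above the next genes Tyrobp, Lgals3, Cd68 and Cd9, each of which overlapped the next in order. In A10i mice Apoe (6270.1 ± 1457) and Spp1 (3581 ± 2997) overlapped again (SD, n = 4). Spp1 thus moved from the ninth to the first or second place. The annotated exon lengths of Gpnmb (6514 bases), Trem2 (4946 bases) and Fabp5 (3567 bases) join all transcript forms and lower their values per kilobase. Before division by length, Gpnmb lay above Spp1 (1648 bases) in every Sham mouse.

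The genes whose log2 change from the Sham mean was closest to that of a member over the 11 libraries, by root-mean-square difference among 14751 genes, were mostly not members. For Trem2 they were Col1a2 (0.287), Diaph3 (0.325) and Col3a1 (0.327), 2 of which encode fibrillar collagens of fibroblasts, and the nearest of the other 9 members was Cd68 at rank 20. Col1a2 rose from at most 4381 normalized counts in Sham mice to between 7516 and 48129 in infarcted mice. For Spp1 they were Sprr1a (0.756), Arg1 (1.06) and Saa3 (1.07), of which none had more than 3.82 normalized counts in a Sham mouse, and Lgals3 came at rank 35. For Gpnmb they were Nxpe5 (0.594), Gpr176 (0.677) and Lgals3 (0.759). These distances describe the 11 libraries and carry no test.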

How the data were processed

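RNA of 11 mouse hearts was sequenced from poly(A)-selected, strand-specific libraries. The authors demultiplexed reads with bcl2fastq 2.20.0, aligned them with GSNAP to GRCm38 (mm10) and counted reads per gene with featureCounts 2.0.1 on Ensembl 98. The deposited values are raw counts, and the strand setting of the counting is not given in the sources used here, so reads of a gene and an antisense partner may be mixed. Of the table, 92 spike-in rows with at most 55 counts in a library were left out, and 55154 of 55421 gene IDs were named.

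Each pair of groups was fitted alone with edgeR 4.0.16 in R 4.3.3 (TMM, edgeR's expression filter, quasi-likelihood F test with robust dispersion, Benjamini-Hochberg adjustment, threshold 0.01). Log2 CPM used a prior count of 2. The test was also run on simulated counts in which every gene had the same dispersion. That setting differs from these mice, so the run does not show how well the test works on them. Alternatives were DESeq2 1.42.0, other normalizations, filters and thresholds, a joint fit of all libraries, and leaving out each library.

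The members and lists were chosen with earlier results of these data known. From each list, the text could name the 2 genes with the largest log2 fold change in DMSO against Sham and in A10i against DMSO mice, and genes that spell out a count of 5 or fewer, which were chosen after their values were seen. The columns of counts were matched to mice by name. P-values set the difference between groups against the spread between these mice, estimated with information shared across genes. Replicate libraries differed beyond sampling noise (chi-square per degree of freedom 4.04 to 60.8 over 15 pairs).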

Additional observations from a re-analysis of the deposited data

Results flagged for a closer look

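Among 20 groups of 4 mice examined on log2 CPM (10 genes in DMSO and in A10i mice), 1 sample stood apart from the rest. For Tyrobp in A10i mice, the highest mouse was A116, with 944 normalized counts. Its gap to the next mouse in log2 CPM, divided by the range of the group in log2 CPM, was 0.962. That ratio was above the critical value of Dixon's test for 4 samples. Ratios on normalized counts were not examined. Chance alone sets about 1 in 20 groups apart in this way. A116 also had the highest macrophage core sum of its group (36186), and the part of that in the Tyrobp value was not tested.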

How the results depend on the processing

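Between A10i and DMSO mice, 1 of the 10 genes (Apoe) passed the threshold with DESeq2's Wald test in place of edgeR, and 0 genes separated when scaled to library size only, where Apoe overlapped. Relative to macrophage markers, 3 genes separated with Csf1r alone, 2 with Adgre1 alone and 3 without Lyz2, Cd14, Itgam and Ptprc. The share of all genes tested that separated was not computed with these denominators, so these counts cannot be read against it. The log2 fold change of Lgals3, near 0, turned to -0.0014 with DESeq2, -0.0204 with library size alone and -0.0011 without a filter. With 1 library left out, 4 to 9 genes passed the threshold in DMSO against Sham mice (9 without A105) and 7 to 10 in A10i against Sham mice, and the log2 fold changes of A10i over DMSO ranged from -0.32 to 0.22 for Tyrobp, -0.92 to 0.497 for Spp1, -0.38 to 0.43 for Lgals3, -0.45 to 0.0263 for Lpcat2 and -0.0919 to 0.44 for Cd68. That of Apoe in DMSO over Sham mice ranged from -0.0030 to 0.30. Lpcat2 passed in A10i against Sham mice with DESeq2, with library size alone and without a filter, and Fabp5 in DMSO against Sham mice with DESeq2 and without A105. Spp1 was not tested where at least 10 counts were required in every library. With library size alone the median log2 fold change of all genes moved to 0.21 in DMSO and 0.18 in A10i over Sham mice. The cause of these changes was not tested.

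No paired analysis was possible because mice of different groups share no replicate name. After MI the lowest raw count of a member in a library was 60, for Lpcat2 in A10i mouse A120. Spp1, Trem2, Gpnmb and Lpcat2 rested on few counts in Sham mice. The effect of depth was not tested.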
